A study of Mus musculus with 2 samples.

Results

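EphA receptors and their ephrin-A ligands were measured by total RNA sequencing of mouse embryonic hindbrain at embryonic day 13.5. The set holds 10 of the 43346 Ensembl genes of the tables: the receptor genes Epha2, Epha3, Epha4, Epha5 and Epha7 and the ligand genes Efna1, Efna2, Efna3, Efna4 and Efna5. They were chosen by name, as members of one receptor and ligand family, and each symbol matched 1 gene identifier. The tissue came from healthy B6NCrl embryos of both sexes, pooled, with no treatment or altered allele in the labels. Each of the 2 libraries started from 10 ng of RNA above 200 nt, to which ERCC spike-ins, synthetic RNAs, were added. The labels call them biological replicates 1 and 2, with 1 donor label in common and separate biosample labels, so their spread may in part be technical. There is 1 group and no contrast between conditions.

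Eph receptors are the largest family of receptor tyrosine kinases. Ephrin-A ligands are held on the cell surface by a lipid (GPI) anchor, so a receptor on one cell meets its ligand on a neighbour, and the contact often ends in repulsion of axons or in the sorting of cells. In the developing hindbrain Eph and ephrin genes are known for their segmental expression and for keeping cells of neighbouring rhombomeres, the segments of the early hindbrain, apart. EphA receptors bind mainly ephrin-A ligands, and EphA4 also binds ephrin-B ligands.

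Replicate 1 held 33080194 estimated counts and replicate 2 held 38756411, of which the members took 0.0654% and 0.066% of the Ensembl gene counts. Of 8 hindbrain markers 7 reached 1 TPM (a level corrected for transcript length, relative to all rows of a library) in both libraries, led by Gbx2 at 44.9 ± 0.12 (SD, n = 2), and of 6 forebrain markers 1 did, Lhx2 at 18.6 ± 0.856. The hindbrain marker En2 lay below it at 0.53 ± 0.0707. The tissue is a mixture, and in bulk RNA fewer cells of a type and less RNA per cell cannot be told apart. Neuron markers summed to 3473 and 3310 TPM in replicates 1 and 2, progenitor markers to 2594 and 2846, endothelial markers to 159.1 and 166.6, microglial markers to 87.4 and 104.9, and midbrain markers to 87.3 and 86.9. Pou4f1 made up most of the midbrain sum, at 68.22 and 67.5 TPM, with Otx2 at 17.77 and 18.76 and Pax7 at 1.34 and 0.68. Erythroid markers summed to 11391 and 12284 TPM, sensory ganglion markers to 114.6 and 127.9, and skeletal muscle markers to 9.78 and 12.1. Other marker sums lay farther apart between the libraries, and whether the mixture of cells differed was not tested. Choroid plexus markers summed to 583 TPM in replicate 1 and 1129 in replicate 2, and mesenchyme and meninges markers to 672.3 and 506.7. Epithelial markers summed to 14.2 and 21.7 but did not all move alike. Krt18 had 6.36 and 11.82 TPM, Krt8 3.58 and 5.48 and Epcam 2.34 and 2.98, while Cdh1 had 1.88 and 1.4. Each marker list had at least 1 detected member, and no marker was at 0 in either library.

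All 10 members were detected, meaning at 1 TPM or more in both libraries, where 35.4% of Ensembl genes and 62.2% of protein coding genes were. The receptors spanned the whole range of the set, from Epha7 at the top to Epha2 at the bottom, and the ligands lay between. Epha7, Epha5, Efna5 and Efna3 formed the upper end in both libraries.

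**Figure D1:**
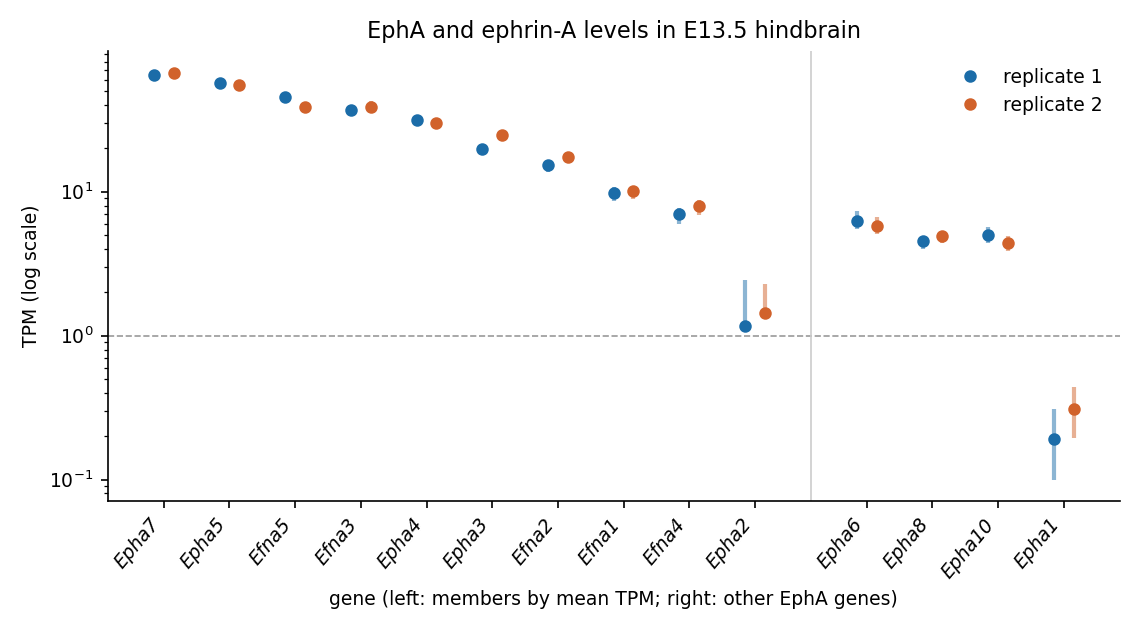
TPM on a log axis for the 10 members in order of mean level, left of the grey line, and the 4 other EphA genes, right of it. Points are the 2 libraries, vertical lines the deposited credibility intervals, and the dashed line marks 1 TPM; Epha7 stands highest at 64.87 and 66.94 TPM and Epha2 lowest of the members at 1.16 and 1.44.

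Among the receptors, Epha7 (chromosome 4, 28813131 to 28967499, GRCm38) had 64.87 TPM in replicate 1 and 66.94 in replicate 2, or 65.9 ± 1.46 (SD, n = 2), on 5087 and 5985 estimated counts. Its level was above that of 82.7% of the 15342 detected genes. EphA7 is a receptor known for truncated forms without the kinase domain, which are described further on. Epha5 (chromosome 5, 84054761 to 84417382), whose product is a receptor of axons and dendrites, had 57.27 and 55.32 TPM, or 56.3 ± 1.38. Both libraries of Epha7 lay above both of Epha5, and the deposited intervals of the genes did not overlap in either library. The ratio of their means was 1.17.

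Epha4 (chromosome 1, 77367185 to 77515088), the receptor with the broadest ligand binding of the family and a long-studied marker of rhombomeres, followed these in level. It had 31.6 and 29.87 TPM, or 30.7 ± 1.22 (SD, n = 2), on 3150 and 3526 counts. Epha3 (chromosome 16, 63543534 to 63864175), a receptor of motor and other axons, had 19.83 TPM in replicate 1 and 24.9 in replicate 2, or 22.4 ± 3.59. The libraries of Epha3 were farther apart than those of any other receptor, yet both stayed below Epha4. Epha2 (chromosome 4, 141301240 to 141329384), best known from epithelia and from early embryonic tissue, had only 1.16 and 1.44 TPM on 91 and 134 counts. Its mean of 1.3 ± 0.198 was above 2.05% of the detected genes. In the deposited posterior mean, an alternative estimate, Epha2 had 1.72 and 1.78 TPM, with intervals from 1.12 to 2.43 and from 1.35 to 2.29.

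Of the ligands, Efna5 (chromosome 17, 62604184 to 62881317), the guidance cue of retinal and many other axons, had 45.51 TPM in replicate 1 and 38.75 in replicate 2, or 42.1 ± 4.78 (SD, n = 2). Efna3 had 36.77 and 39.02 TPM, or 37.9 ± 1.59. Efna5 was the higher of the pair in replicate 1, at a ratio of 1.24, and the levels were nearly equal in replicate 2, at 0.993. These were the only neighbours in the order of the 10 members whose libraries overlapped; in the other 8 of 9 neighbouring pairs, both libraries of one gene lay above both of the next.

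Efna2 (chromosome 10, 80179482 to 80190010), a ligand studied together with Efna5 in the midbrain, had 15.27 and 17.39 TPM, or 16.3 ± 1.5 (SD, n = 2). Efna1, a ligand first found as a cytokine-induced product of endothelium, had 9.85 and 10.09 TPM, or 9.97 ± 0.17, on 281 and 340 counts. Efna4 had 7.0 and 7.95 TPM, or 7.475 ± 0.672, on 217 and 291 counts. The lowest ligand was thus 5.75 times as high as the lowest receptor, Epha2. For Efna1 and Epha2, which blood vessel and surface epithelium are also known to express, the endothelial markers Cldn5 and Kdr had 73.9 ± 3.95 and 20.3 ± 0.849 TPM and the epithelial marker Epcam 2.66 ± 0.453. The part of such cells in these levels was not tested.

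Efna1, Efna3 and Efna4 lie side by side on chromosome 3, on the minus strand, within 66.3 kb from 89271733 to 89338028 (GRCm38), and the annotation places 0 other protein coding genes between them. Across that cluster the level differed by gene: Efna3, in the middle, had 37.9 ± 1.59 TPM against 9.97 ± 0.17 for Efna1 and 7.475 ± 0.672 for Efna4 (SD, n = 2). An antisense gene overlaps Efna3 (Gm15998, with 12.6 and 13.6 counts) and another overlaps Efna4 (4731419I09Rik, with 18.9 and 10.2 counts). The strand setting of the counting is not given in the sources used here, so reads of Efna4, at 217 and 291 counts, and of its antisense partner cannot be fully told apart. Epha7 has an antisense partner too, Gm11915, with 3 and 5 counts, which is small beside its own 5087 and 5985.

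The 4 other EphA genes of the genome were low. Epha6 had 6.3 and 5.79 TPM, Epha8, known from the midbrain, 4.54 and 4.91, and Epha10, whose kinase is thought inactive, 5.04 and 4.38. Epha1, an epithelial receptor, had 0.19 and 0.31 TPM and was not detected. The 3 detected ones thus lay between Epha2 and Efna4.

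Summed over genes, the receptors had 174.7 TPM in replicate 1 and 178.5 in replicate 2, and the ligands 114.4 and 113.2. The receptor sum was 1.53 times the ligand sum in replicate 1 and 1.58 times in replicate 2, or 1.55 ± 0.0348 (SD, n = 2). Epha7 and Epha5 together supplied 69.9% and 68.5% of the receptor sum, and Efna5 and Efna3 71.9% and 68.7% of the ligand sum. This excess of receptors depended on transcripts not annotated as protein coding. With only transcripts annotated as protein coding, and Epha4-205, which has the same coding sequence as Epha4-201, the receptor sum was 105.1 and 106.9 TPM, and its ratio to the ligand sum was 0.919 and 0.944. That restriction was chosen after the transcript values were seen. The ligand sum did not move under it, since every ligand transcript with a value above 0 was coding. Apart from Efna3-202, no quantified ligand transcript was annotated as noncoding, so the annotation left the ligand sum little room to move. The lower ratio thus depends on which genes have annotated noncoding transcripts.

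**Figure D2:**
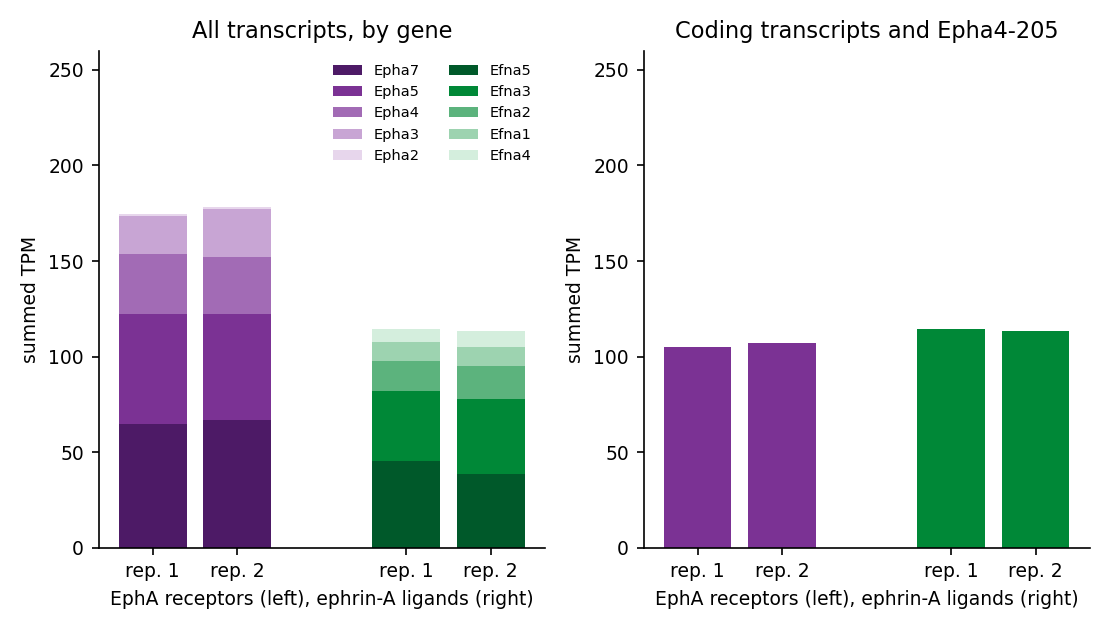
Summed TPM of the EphA receptors (purple) and ephrin-A ligands (green) in each library, stacked by gene for all transcripts on the left, and for coding transcripts and Epha4-205 on the right. The receptor bars stand at 174.7 and 178.5 on the left and at 105.1 and 106.9 on the right, and the ligand bars stay at 114.4 and 113.2.

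The transcripts of Epha7 split the gene between full-length, truncated and noncoding forms. The largest share of the gene's TPM, 30.8% in replicate 1 and 32.1% in replicate 2, went to Epha7-208, annotated as a processed transcript without a coding sequence. Full-length Epha7-201, of 998 codons, had 26.6% and 24.5%, and Epha7-202, a coding form of 610 codons, had 20.9% in both libraries. A truncated EphA7 receptor of this kind keeps the extracellular part and the membrane span and lacks the kinase domain. The other full-length form, Epha7-203, had 6.28% and 5.29%. In TPM, Epha7-202 was 0.636 and 0.703 times the sum of the full-length forms Epha7-201 and Epha7-203.

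The coding sequences of these 3 forms part after exon 9 of Epha7 (chr4:28943323-28943378, GRCm38, plus strand), as the following lines from the GENCODE M21 transcripts show. They are printed because these letters separate the coding sequences of the forms. Capitals mark, in Epha7-201, the 12 bases at the start of exon 10 (chr4:28947528-28947539) that Epha7-203 lacks, and in Epha7-202 the end of its coding sequence with the stop codon (chr4:28946219-28946253).
Epha7-201: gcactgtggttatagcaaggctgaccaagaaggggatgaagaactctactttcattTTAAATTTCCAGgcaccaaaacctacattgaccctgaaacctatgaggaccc
Epha7-203: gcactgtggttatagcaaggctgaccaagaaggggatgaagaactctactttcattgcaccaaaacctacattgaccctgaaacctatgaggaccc
Epha7-202: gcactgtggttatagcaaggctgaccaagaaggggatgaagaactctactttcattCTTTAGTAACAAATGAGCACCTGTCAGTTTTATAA
The 12 extra bases keep the reading frame, and Epha7-203, without them, made up 19.1% of the full-length TPM in replicate 1 and 17.8% in replicate 2. Epha7-201 and Epha7-203 also differ by 119 bases at the 5′ end, so these shares do not rest on the 12 bases alone. Epha7-202 leaves out 8 whole coding exons of Epha7-201 and 1196 coding bases in all, and adds 32 of its own.

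The noncoding form Epha7-208 has 5 exons and runs past the end of exon 5 into the intron, with 1805 intron bases. By estimated counts, which are not divided by transcript length, it held 25.0% and 27.1% of Epha7. In counts Epha7-201 led, with 2367 in replicate 1 and 2655 in replicate 2 against 1272 and 1621 for Epha7-208. The next line shows the exon end (chr4:28871957-28871996) in lower case and the intron (chr4:28871997-28872028) in capitals up to the first stop codon in the frame of Epha7-201, which would come after 451 codons.
Epha7-208: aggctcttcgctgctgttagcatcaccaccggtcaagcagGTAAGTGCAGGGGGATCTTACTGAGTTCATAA
Whether such RNA is processed, unspliced or translated was not measured.

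In TPM, though not in counts, the leading transcript of Epha5 had no annotated coding sequence. Epha5-207, a retained-intron transcript of 3 exons, had 51.9% of the gene's TPM in replicate 1 and 52.7% in replicate 2, and 32.8% and 33.6% of its estimated counts. By counts the coding transcripts together held 63.9% and 62.8% of Epha5, and Epha5-204 led with 1582 and 1805 estimated counts against 1318 and 1526 for Epha5-207. Of the TPM, Epha5-204, a coding form of 819 codons, had 26.4% in both libraries, and Epha5-205, of 1040 codons, 13.0% and 12.7%. The shorter form was thus 2.03 and 2.08 times as high as the longer in TPM. Epha5-204 lacks coding exons of 156, 336 and 66 bases that Epha5-205 has, and the last coding exon of the longer form, of 103 bases, is replaced.

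These 3 forms of Epha5 share exon 3, which ends at chr5:84331228-84331267 (GRCm38, minus strand), and then go different ways, which is why the junction is printed. Capitals mark what follows exon 3: the intron up to the first stop codon in frame in Epha5-207 (chr5:84331202-84331227), exon 4 in Epha5-205 (chr5:84237515-84237554) and the exon joined in its place in Epha5-204 (chr5:84156497-84156536).
Epha5-207: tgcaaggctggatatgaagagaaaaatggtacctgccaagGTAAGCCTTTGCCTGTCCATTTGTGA
Epha5-205: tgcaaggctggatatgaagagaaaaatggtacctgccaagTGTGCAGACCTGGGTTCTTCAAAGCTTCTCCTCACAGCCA
Epha5-204: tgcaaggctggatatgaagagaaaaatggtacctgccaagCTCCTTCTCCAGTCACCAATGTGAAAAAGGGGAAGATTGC
In Epha5-207 the frame of Epha5-205 meets a stop codon after 313 codons, 26 bases into the 453 intron bases of the transcript. With total RNA as input, unspliced and spliced RNA both enter a library, and their parts in Epha5-207 were not tested.

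For Epha4 the deposited shares put a different transcript first in each library. Epha4-201 had 64.7% of the gene's TPM in replicate 1 and 8.61% in replicate 2, while Epha4-205, annotated as a target of nonsense-mediated decay, had 0% and 55.5%. Their coding sequences are identical over 2958 bases, and the transcripts differ by 9 bases at the 5′ end and 4 at the 3′ end. Summed, they had 64.7% and 64.1%, so their sum differed little between the libraries. The split between them was poorly determined. In replicate 1 the deposited intervals ran from 8.65 to 20.5 TPM for Epha4-201 and up to 10.9 for Epha4-205, and in replicate 2 from 0.785 to 17.9 and from 0.0416 to 17.3. In the posterior mean, Epha4-201 led in both libraries, with 51.5% against 12.1% for Epha4-205 in replicate 1 and 36.8% against 26.2% in replicate 2. The change of leading transcript is therefore not reported as a difference between the libraries. Epha4-207, another decay target of 38 codons, had 20.0% and 21.1%. Epha4-203, a coding form of 117 codons, lay just outside the rule of 10% in both libraries, with 10.8% and 9.34%.

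**Figure D3:**
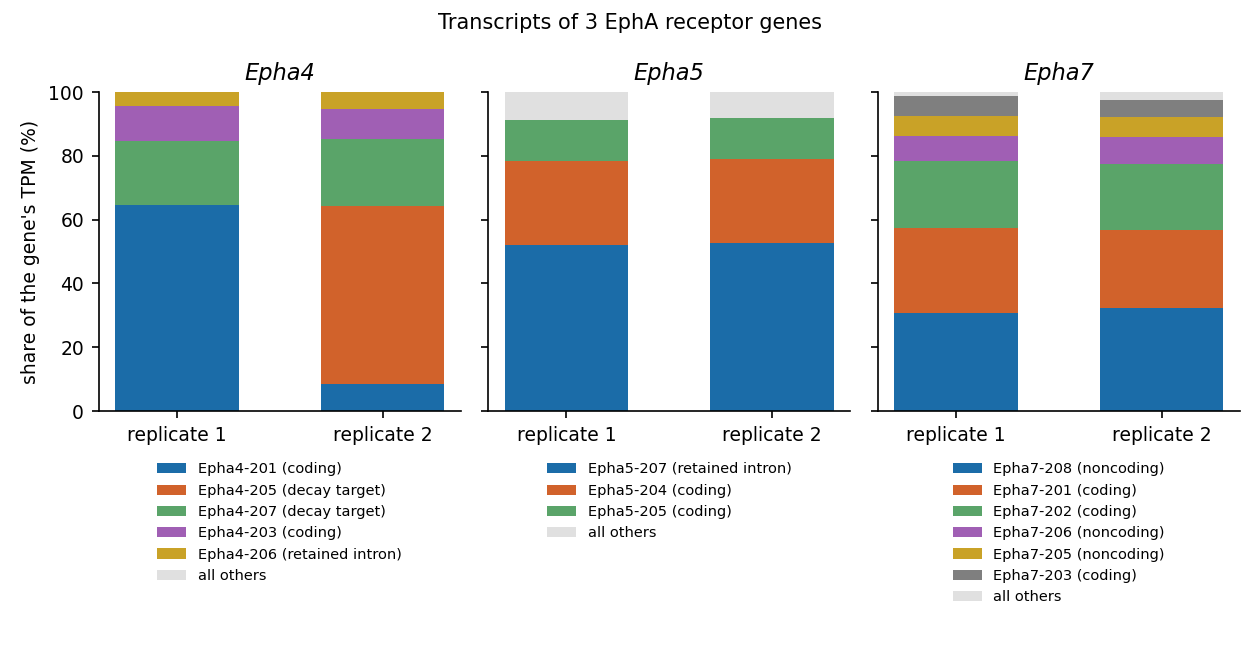
Stacked bars of each transcript's percent of the TPM of Epha4, Epha5 and Epha7 in the 2 libraries, with transcripts of at least 5% in either library coloured and the rest in light grey. Epha5 and Epha7 split alike in both libraries, whereas Epha4 shows 64.7% Epha4-201 in replicate 1 and 55.5% Epha4-205 in replicate 2, a split that the wide intervals leave undetermined.

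The ligands showed no such split. Efna1, Efna2, Efna3 and Efna4 each had 100% of their TPM on 1 coding transcript in both libraries, as did Epha2 and Epha3. Efna2 and Efna4 had only 1 transcript quantified, so a split of these could not be seen. In the posterior mean, Efna1-201 had 94.05% and 95.04% in replicates 1 and 2, and Efna3-201 96.22% and 95.23%. For Epha2, with few counts, the posterior mean put 63.5% and 78.2% on Epha2-201 and the rest on 3 transcripts that had 0 counts. Efna5-201, with an exon of 81 bases that Efna5-202 skips, had 98.7% and 99.5%, and Efna5-202 had 1.29% and 0.5%. The skipped exon lies in the part of ephrin-A5 between the receptor-binding domain and the membrane anchor. These 2 transcripts also differ by 3135 bases at the 3′ end and 173 at the 5′ end. Their shares therefore do not measure the use of the exon alone. Lines below give the junction from exon 3 (chr17:62613837-62613876, GRCm38, minus strand) to exon 5 (chr17:62607424-62607463). The exon is in capitals (chr17:62613316-62613396), to show where the coding sequences differ.
Efna5-201: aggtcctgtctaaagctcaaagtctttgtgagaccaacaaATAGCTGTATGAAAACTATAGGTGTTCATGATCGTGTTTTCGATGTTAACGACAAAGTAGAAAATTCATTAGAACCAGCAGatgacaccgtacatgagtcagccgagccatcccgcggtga
Efna5-202: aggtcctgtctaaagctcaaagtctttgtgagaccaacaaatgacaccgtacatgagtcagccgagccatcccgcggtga
For Epha3, 1 transcript was quantified where GENCODE M21 lists 6, so a split of Epha3 could not be seen in these tables.

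Between the libraries, 2 of the 10 members differed by more than counting error: Epha3 was higher in replicate 2 and Efna5 lower. The test was a two-sided exact binomial test of the counts of 1 library against the other with Benjamini-Hochberg adjustment over 19687 genes, and it called 12.1% of them. Epha3 had 2277 counts in replicate 1 and 3377 in replicate 2, which is 1.27-fold after scaling to library size (log2 ratio 0.35, 95% exact interval 0.27 to 0.43, adjusted p = 4.32e-17 by the exact binomial test). Efna5 had 3656 and 3702 counts, or 0.87-fold (log2 ratio -0.20, interval -0.27 to -0.14, adjusted p = 1.2e-07 by the same exact test). These 2 members were also those whose deposited TPM intervals did not overlap between the libraries, as was so for 8.07% of the genes tested.

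Neither Epha3 nor Efna5 passed once a spread between replicates was allowed for. That spread was fitted on the same 2 libraries, so the differences under test are themselves counted in it. With edgeR's common dispersion (a biological coefficient of variation of 6.30%), 1.94% of genes and 0 members were called, with an adjusted p of 0.264 for Epha3 and 0.996 for Efna5; 1 member, Epha3, had an unadjusted p under 0.05 (p = 0.00964, edgeR exact test). Among the 9775 genes between 5 and 100 TPM, 95.6% had a smaller log2 ratio in size than Epha3 and 87.2% a smaller one than Efna5. In TPM the ratio of Epha3 to Efna5 was 0.436 in replicate 1 and 0.643 in replicate 2.

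The other 8 members were not called, although the ratios of Efna2, Efna4 and Epha2 were as large in size as that of Efna5. The log2 ratio of replicate 2 over replicate 1 was 0.02 for Epha7 (95% exact interval -0.04 to 0.07), -0.04 for Epha5 (-0.10 to 0.02) and -0.06 for Epha4 (-0.13 to 0.01). It was 0.11 for Efna3 (0.01 to 0.20) and 0.21 for Efna2 (0.06 to 0.36), with an adjusted p of 0.13 and 0.0503 by the exact binomial test. Efna1, Efna4 and Epha2, with fewer counts, had wider intervals: the log2 ratio of Efna1 was 0.05 (-0.18 to 0.29), that of Efna4 0.20 (-0.06 to 0.46) and that of Epha2 0.34 (-0.06 to 0.74). The intervals of Efna4 and Epha2 held both 0 and the ratio seen for Epha3. In all, 7 members had a ratio above 0 and 3 below, with a median log2 of 0.08 against 0.004 over all genes tested.

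Scaling to the ERCC spike-ins in place of the genes lowered the median log2 ratio of all genes from 0.004 to -0.138. Under it 7809 of the 19687 genes tested were called, and 5 of the 10 members. Of the called genes 6.7% were higher in replicate 2, against 56.4% of the 2390 called by the gene-based scaling. Epha3 was still higher in replicate 2 (log2 0.21) and Efna5 lower (-0.34), while Epha4, Epha5 and Epha7 became called as lower, at -0.20, -0.18 and -0.13. The sign thus depended on the scaling for Epha7, and also for Efna1 and Efna3, which went from 0.05 to -0.09 and from 0.11 to -0.04 without being called under either.

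**Figure D4:**
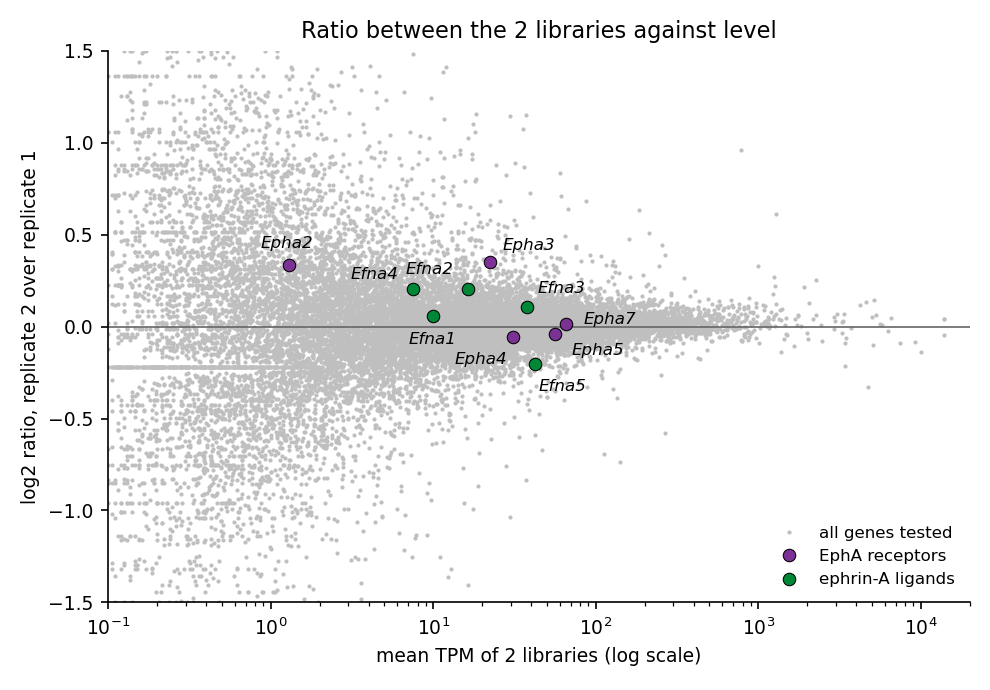
Log2 ratio of replicate 2 over replicate 1 against mean TPM (log axis) for the genes tested (grey), with the receptors in purple and the ligands in green; genes beyond the axis limits are not drawn. Epha3 lies at 0.35 and Efna5 at -0.20, and Epha7, Epha5 and Epha4 lie between -0.06 and 0.02.

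Marker genes of several lists differed between the libraries too. All 5 choroid plexus markers were called higher in replicate 2, with Ttr at 532.5 and 1022 TPM, and all 5 were also called with edgeR's common dispersion. Of the mesenchyme and meninges markers 4 of 5 were called lower by the exact binomial test, where 12.1% of all genes were called in either direction. With the common dispersion 1 of them was, Col1a1, at 176.3 and 104.2 TPM. Of the hindbrain markers 4 of 8 were called higher, such as Hoxb2, a segmental gene of the hindbrain, at 31.4 and 38.3 TPM, and 0 lower; with the common dispersion 0 of the 8 were called. By the exact binomial test, 4 of 4 erythroid, 3 of 4 microglial, 2 of 3 sensory ganglion and 2 of 4 epithelial markers were also called higher. Of 5 neuron markers 3 were called lower, and of 5 progenitor markers 3 were higher and 2 lower. With the common dispersion 1 sensory ganglion and 1 epithelial marker were called, and 0 of the other 4 lists just given. The part of these differences in those of Epha3 and Efna5 was not tested.

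Beyond the family, 47 genes of the pathway were listed, and 44 of them were detected. By the exact binomial test 6 were higher in replicate 2 and 5 lower, or 23.4% of the list. The same test called 12.1% of all genes tested and 14% of the 9775 genes between 5 and 100 TPM. The median log2 ratio of the listed genes was 0.029. With edgeR's common dispersion 2 of the 47 were called, En1 and Pax7, or 4.26% against 1.94% of all genes. Ephrin-B ligands, which EphA4 can bind, were all detected. Efnb3, a midline ligand that turns back EphA4-bearing axons, had 74.98 and 73.2 TPM, above Epha7 and every ephrin-A gene. Efnb1 had 21.67 and 26.8 TPM and Efnb2 16.56 and 20.15, and both were called higher in replicate 2 (log2 0.28 for each, adjusted p = 6e-07 by the exact binomial test), though not with edgeR's common dispersion (adjusted p = 0.61). Ephb2, a receptor that ephrin-A5 can bind, had 12.12 and 13.38 TPM.

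Listed genes that carry the signal inside the cell were detected throughout. Chn1, the Rac-inactivating protein that acts behind EphA4 in axon repulsion, led the 8 exchange factors and GTPase-activating proteins at 65.0 ± 2.47 TPM (SD, n = 2), followed by Tiam1 at 23.4 ± 0.495 and Chn2 at 22.9 ± 1.15. Sipa1l1 was the lowest of these at 5.775 ± 0.163. Among 10 adaptors and kinases, Grb2 had 148.2 ± 6.72 TPM, Crk 97.3 ± 0.46 and Cdk5, which acts on the exchange factor Ngef, 57.9 ± 0.834, while Abl2 was lowest at 5.07 ± 0.537. The 6 phosphatases and partners of the receptors' SAM domain ran from Anks1b at 42.9 ± 1.41 TPM, with Acp1 at 41.2 ± 0.0778 and Anks1 at 21.01 ± 0.948, down to the lipid phosphatase gene Inppl1 at 5.83 ± 0.509.

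Partners at the cell surface were detected as well. Ephrin-A ligands have no part inside the cell, and when they act as receptors they are known to signal through Ntrk2, Ngfr and Ret. Ntrk2 and Ngfr, the neurotrophin receptors TrkB and p75, had 35.8 ± 1.41 and 35.3 ± 2.43 TPM (SD, n = 2), and Ret 4.98 ± 0.0566. Of the enzymes that cut Eph receptors or ephrins, Adam10 had 60.1 ± 0.728 TPM and the membrane protease gene Mmp14 39.6 ± 1.36.

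Transcription factors known to act on Eph or ephrin genes were the only pathway list with members below 1 TPM. Hoxa2 had 33.4 ± 0.721 TPM and Pax2 13.98 ± 0.113 (SD, n = 2). Egr2 (Krox20), which drives Epha4 in the segments of the early hindbrain, had 3.2 ± 0.198 TPM. En2 had 0.53 ± 0.0707 TPM and Hoxb1 0.425 ± 0.247. En1, an isthmus and midbrain gene known to act on Efna2 and Efna5 in the tectum, had 6.33 TPM in replicate 1 and 3.21 in replicate 2 (log2 -0.95, adjusted p = 7.2e-12 by the exact binomial test and 4e-05 with edgeR's common dispersion). Pax7, of dorsal midbrain and other progenitors, had 1.34 and 0.68 TPM (log2 -1.09, adjusted p = 4.5e-07 and 0.00043). En1 and Pax7 were thus lower in replicate 2, as Efna5 was by the exact binomial test alone. Efna2 had 15.27 and 17.39 TPM, in the other direction. Their part in the Efna5 difference was not tested.

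**Figure D5:**
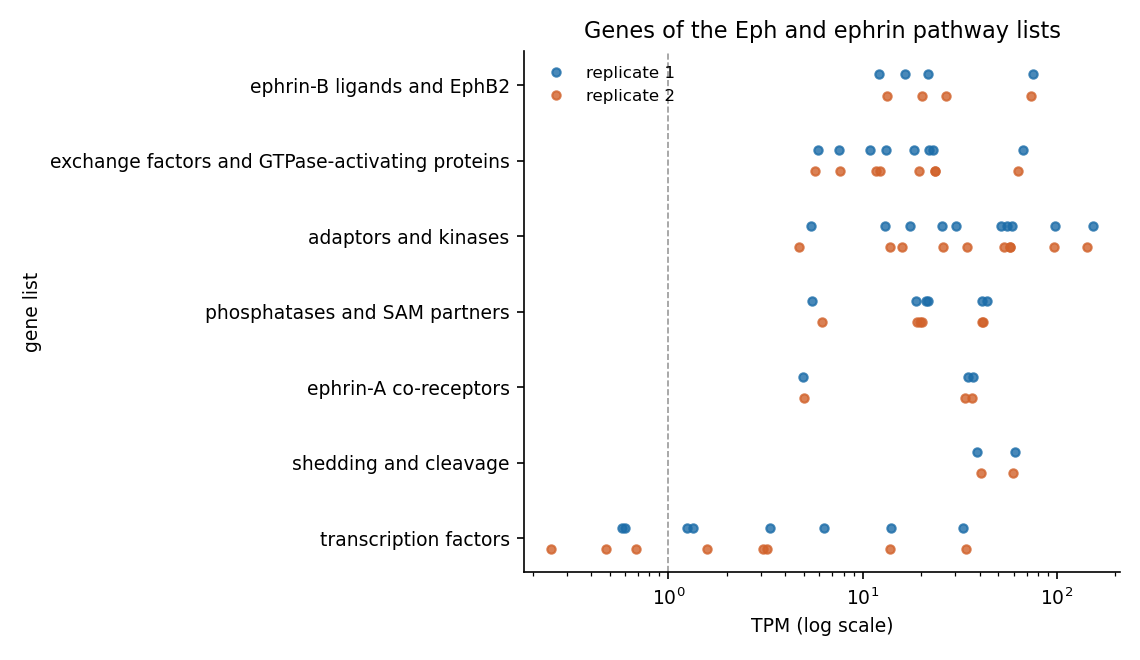
TPM on a log axis of 41 genes in 7 pathway lists, 1 point per gene and library, with the dashed line at 1 TPM. Grb2 stands farthest right at 148.2 TPM on average, and only the transcription factor list has points left of the line.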

How the data were processed

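Gene and transcript tables were deposited for each library. Estimated counts (expected counts of reads per gene or transcript), TPM and FPKM are as deposited by the authors, with a posterior mean TPM, credibility intervals of unstated level around it, and the percent of a gene's TPM on each transcript, per the file headers. The assembly was mm10, per the labels. For the aligner, counting program and strand: not given in the sources used here. Names, positions and sequences are those of GENCODE M21 (GRCm38, equal to mm10); 42462 of 43346 genes matched.

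With 1 group no quasi-likelihood test could be run. Counts were rounded, scaled by TMM (edgeR 4.0.16, R 4.3.3) and compared by an exact binomial test (SciPy 1.17.1) for every gene whose 2 counts summed to 10 or more, adjusted at 0.05 (Benjamini-Hochberg, statsmodels 0.14.6); log2 ratios used a prior of 0.5 counts. This compares 2 libraries, and its p-values and intervals cover counting error only; without molecular identifiers, reads need not be independent molecules. The test and the dispersion fit were tested on simulated data. Alternatives included DESeq2 1.42.0 size factors, other scalings and edgeR's exact test with a common dispersion from an intercept-only fit.

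Members and lists were chosen with earlier results of these data known. Named were all members, the 4 other EphA genes and, of each pathway list, the 3 highest, the lowest, those below 1 TPM and those called with a log2 ratio of at least 0.5 in size; transcripts were named from 10% in both libraries, and Egr2, Epha4-201, Epha4-203, Epha4-205, Epha7-203 and Efna5-202 after their values were seen. The counts over the pathway cover all 47 listed genes, of which 6 are not reported here by name. Marker lists are given by sums and examples. Likeness of pattern was not computed, since 2 libraries give no pattern.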

Additional observations from a re-analysis of the deposited data

How the results depend on the processing

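No paired analysis was possible because the 2 libraries form 1 group. The order of the members was kept in all 10 places with the posterior mean TPM, TPM or FPKM rescaled to the Ensembl genes, or replicate 1 alone; with replicate 2 alone 8 places were kept, since Efna5 and Efna3 changed places (range 8 to 10). Levels moved at most 1.06-fold under the 3 other units, except for Epha2 at 1.35-fold in the posterior mean. All 10 members stayed detected at 0.5 TPM, by the lower interval bound and in each library, and 9 at 5 TPM, Epha2 being below. The log2 ratio of the receptor to the ligand sum, 0.634, was 1.212 with CPM, which is not divided by length, 0.757 with all EphA genes and 0.875 by medians of log2(TPM + 1). It turned to -0.224 with coding transcripts only and to -0.102 with Epha4-205 added to them, both chosen after seeing the data. The 2 called members, Epha3 and Efna5, were also called with DESeq2 size factors, total counts and no count filter. With ERCC scaling 5 of the 10 members were called, where 7809 of all 19687 genes tested were. Under it Epha7 turned to -0.127 (adjusted p = 2.83e-05, exact binomial test). Efna1 and Efna3 changed sign too, to -0.087 and -0.036, uncalled. With edgeR's common dispersion 0 members were called. Leaving out a library leaves no comparison between libraries. The 14 transcripts at 10% or more became 17 with posterior means, 14 among coding transcripts alone, and 15 or 16 in a single library. Depth limits Epha2, Efna1 and Efna4 most, with 91 to 340 counts per library.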
